A study of Mus musculus with 6 samples.

Results

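The genes described here are those whose RNA moved in the same direction in cardiomyocytes (CMs) that overexpressed (OE) either of the engineered YAP proteins, YAP6SA or YAP5SA, relative to CMs that expressed GFP. A gene was counted as a member when the average of both variants differed from GFP at a false discovery rate (FDR) under 0.05 and when all 4 within-batch differences, namely YAP6SA minus GFP and YAP5SA minus GFP in batch 1 and in batch 2, had the same sign. Of 13323 genes tested, 481 were members, with 316 higher and 165 lower than GFP. FDR is the Benjamini-Hochberg adjusted p of edgeR's quasi-likelihood test over all tested genes, with batch as a covariate.

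Wild-type mice of the outbred ICR stock received 1e+11 viral genomes of AAV9 under the skin at postnatal day 6. The virus carried GFP, YAP6SA or YAP5SA behind the cardiac troponin T (cTnT) promoter, which is active in CMs, so that the control animals had the same virus and promoter. Hearts were taken at day 9, CM nuclei were pulled down with an antibody to PCM1, and polyadenylated nuclear RNA was sequenced without strand information in 6 libraries. Each of the 3 groups had 2 libraries, and each batch held 1 library of each group. Both variants carry serine-to-alanine changes at the 5 sites that LATS kinases phosphorylate, and YAP6SA carries a further change, S94A, that disrupts binding to TEAD factors.

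YAP is a transcriptional coactivator that the Hippo kinases hold out of the nucleus by phosphorylation at the LATS sites. It has no DNA-binding domain of its own and acts mainly through TEAD factors, whose targets include *Ankrd1* and *Ccn2*. In the heart YAP is known for its part in CM proliferation before and around birth. Serum response factor (SRF), which reads actin dynamics through its MRTF cofactors, drives another set of genes that overlaps in part with those of YAP.

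The libraries held 14552847 to 19615627 counts on genes, and 22 to 23.4% of the reads in the tables were assigned to no single gene. The markers that define CMs were abundant in every library: *Tnnt2* ranged from 10674 to 21162 CPM (counts scaled to library size, with TMM factors). Mouse *Yap1* was at 139 and 130 CPM in GFP, 122 and 130 CPM in YAP6SA and 138 and 102 CPM in YAP5SA, with no difference called (log2 change -0.13 ± 0.14 SE, edgeR FDR 0.627). Whether reads of the viral constructs can be assigned to this gene is not given in the sources used here, so *Yap1* did not check the labels. *Xist* had 1, 8 and 0 counts in the GFP, YAP6SA and YAP5SA libraries of batch 1 and 9350, 10550 and 10320 counts in those of batch 2, whereas *Ddx3y*, a Y-linked gene, had counts in all 6 libraries (1148 to 2881). *Xist* RNA thus followed the batch and not the group, and the libraries of batch 2 held both *Xist* and Y-linked RNA. The labels do not say how many hearts entered a library, so the p-values measure only the spread between these libraries.

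The pooled comparison asked which genes the YAP variants share. It called 416 genes higher (3.12% of those tested) and 172 lower (1.29%). The agreement in sign over the 4 differences, taken alone, held for 2288 genes upward (17.2%) and 2322 genes downward (17.4%), of which 316 (2.37%) and 165 (1.24%) also passed the pooled test. Agreement removed 100 of the higher but only 7 of the lower calls. Among the removed genes was *Ccn2* (FDR 0.0249), a TEAD target at 99.7 and 42.6 CPM in GFP, 97.2 and 133 CPM in YAP6SA, and 506 and 958 CPM in YAP5SA. Its YAP6SA library of batch 1 lay below the GFP library of that batch.

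The size of the set depended on the model. Coding both variants as 1 group gave 0 genes past the threshold with edgeR (smallest FDR 0.212), with 489 genes higher and 265 lower at an unadjusted p under 0.05. That coding puts the gap between the variants into the error. Of the 316 higher and 165 lower members, 87 and 14 passed in the fit without the batch term, 26 and 5 without the GFP library of batch 2, 143 and 34 without that of batch 1, and 90 and 26 without the YAP6SA library of batch 1. Leaving out the YAP5SA library of batch 1 raised the set to 1139 and 1049 genes. All 481 members kept their direction in every alternative fit in which they were tested. The members nearest to the threshold were *Ift43* (FDR 0.0493) and *Wdr91* (FDR 0.0494), and the first genes outside it were *Fhl1* and *Ppp1r13l* (both FDR 0.0501).

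In 233 of the 316 higher members all 4 variant libraries lay above both GFP libraries, and in 144 of the 165 lower members all 4 lay below them. Over all tested genes such separation occurred in 9.89% upward and 9.87% downward, and since the members were chosen on these same values their shares are a description. Of the higher members, 36 passed the filter on low counts only through a variant group, and in 9 both GFP libraries had 3 or fewer counts. Protein-coding genes made up 95.3% of the higher and 86.7% of the lower members, against 91.8% of the genes tested.

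The higher members were ranked by the smallest of their 4 differences, and the first was *Acta2*, which encodes smooth muscle alpha-actin. *Acta2* was at 272 and 142 CPM in GFP, 1559 and 1256 CPM in YAP6SA, and 1842 and 1352 CPM in YAP5SA. All 4 variant libraries lay far above both GFP libraries. The pooled log2 change was 2.91 ± 0.21 (SE, FDR 0.00049), and the changes in YAP6SA (2.83) and YAP5SA (3.0) did not differ past the threshold, with a 95% interval of the difference from -0.29 to 0.63.

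Of the other 14 genes in this ranking, *Irs2*, *Emd*, *Krt18*, *Gdf15* and *Myl9* rose with no called difference between the variants. Against GFP alone YAP6SA passed in *Irs2* (FDR 0.0424) and *Myl9* (FDR 0.025), but not in *Emd* (FDR 0.141), *Krt18* (FDR 0.328) or *Gdf15* (FDR 0.462). *Irs2*, an adaptor of the insulin receptor, was at 20.5 and 13 CPM in GFP, 78.7 and 31.8 CPM in YAP6SA and 61.7 and 42.7 CPM in YAP5SA. Both batches showed the rise, and batch 1 was the higher one in every group. *Emd*, which encodes the inner nuclear membrane protein emerin, was at 14.7 and 12.0 CPM in GFP, 35.5 and 27.4 CPM in YAP6SA and 41.9 and 28.6 CPM in YAP5SA (log2 change 1.31 ± 0.18, FDR 0.00848). *Krt18*, a keratin of simple epithelia, rose by 2.17 ± 0.42 from 1.10 and 2.42 CPM in GFP (FDR 0.0249). *Gdf15*, a secreted stress cytokine, rose by 1.68 ± 0.35 from 3.47 and 1.96 CPM (FDR 0.0338). In each of these 5 genes all 4 variant libraries lay above both GFP libraries.

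*Aif1l*, *Amot*, *Trp63*, *Wscd2* and *Myh8* rose in the pooled test and lay higher in YAP5SA than in YAP6SA. Against GFP alone YAP6SA did not pass in any of them (FDR 0.225 to 0.804). All 5 passed the filter on low counts only through a variant group, as did *Krt18*, *Cenps*, *Tceal5* and *Gm17971* of the same ranking. *Aif1l*, an actin-binding protein, was at 0.999 and 1.37 CPM in GFP, 3.61 and 4.0 CPM in YAP6SA, and 17.9 and 29.3 CPM in YAP5SA (pooled log2 change 2.99 ± 0.31, FDR 0.00396). *Amot*, a scaffold that binds YAP, rose by 2.13 ± 0.48 (FDR 0.0409) from levels of 0.526 and 0.588 CPM. *Trp63*, a transcription factor of the p53 family, was at 0.789 and 1.04 CPM in GFP, 1.73 and 2.18 CPM in YAP6SA, and 11.3 and 10.9 CPM in YAP5SA (FDR 0.0165). The GFP libraries had 2 and 1 counts of *Wscd2* and 1 and 0 counts of *Myh8*, the perinatal skeletal myosin heavy chain, so no fold is given for them. *Myh8* was at 0.254 and 0.364 CPM in YAP6SA and at 35.5 and 65.6 CPM in YAP5SA, and its YAP6SA level is thus a handful of reads.

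*Cenps*, a centromere protein, *Tceal5*, *A930033H14Rik* and the processed pseudogene *Gm17971* filled the remaining ranks, with pooled log2 changes between 1.67 and 2.10. *Gm17971* lies within *Coq10b* on the same strand, and *Coq10b*, needed for coenzyme Q function, was itself a member (0.88, FDR 0.0173). Their reads may be shared.

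**Figure D1:**
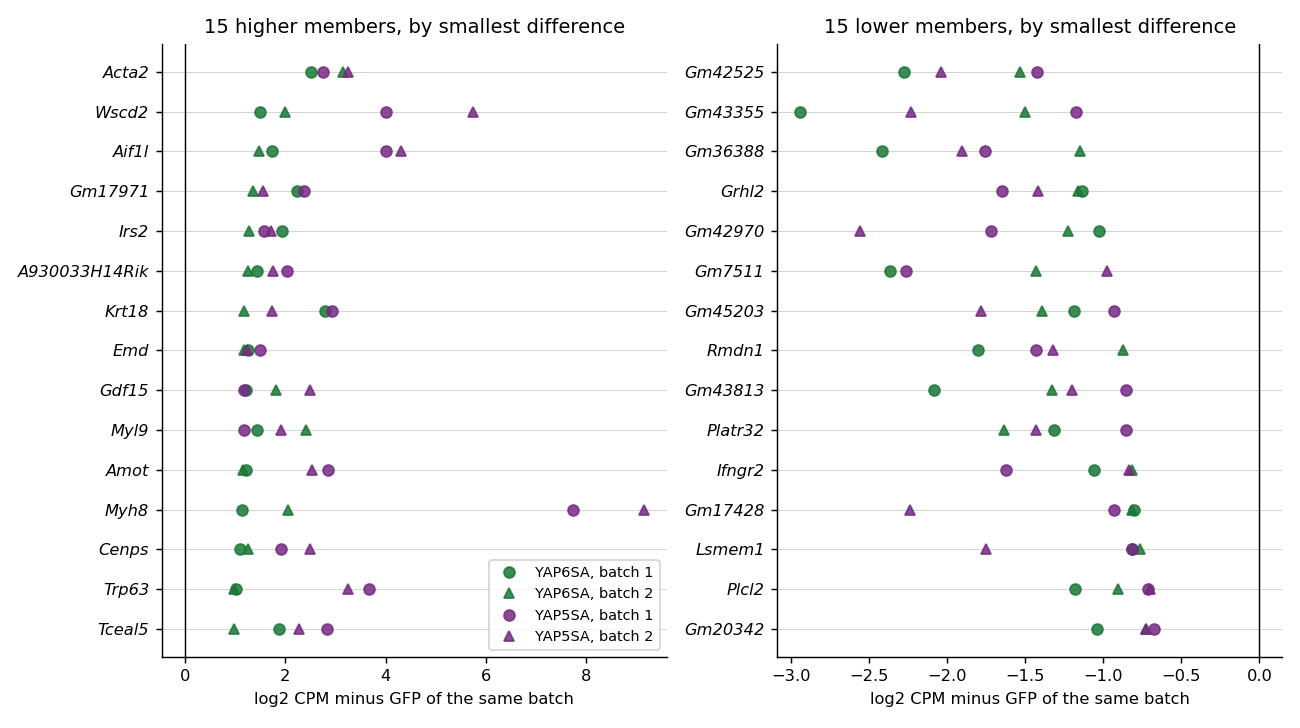
Each row is a member of the common response and each point is log2 CPM (prior count 2) in 1 variant library minus the GFP library of the same batch, in green for YAP6SA and purple for YAP5SA, with circles for batch 1 and triangles for batch 2. The 15 higher members on the left are led by *Acta2*, whose 4 points sit close together, whereas the YAP5SA points of *Myh8*, *Wscd2* and *Aif1l* lie far to the right of their YAP6SA points. In the 15 lower members on the right the 2 colours are mixed in most rows.

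The genes known as targets of SRF and MRTF made up 1 group of the members that rose. Of 35 tested genes on this list 12 were members and higher (34.3%, against 2.37% of all genes tested), none was lower, and 19 had the same upward sign in all 4 differences. The median log2 change of the list was 0.68 pooled, 0.49 in YAP6SA and 0.84 in YAP5SA, where the median of all tested genes was 0.0049. Besides *Acta2* the members were *Srf* itself, the actin-binding genes *Cnn2*, *Tagln2*, *Cfl1*, *Wdr1* and *Zyx*, the tropomyosins *Tpm1* and *Tpm4*, the light chain *Myl9* and the LIM proteins *Csrp1* and *Pdlim7*.

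*Srf* was at 63.3 and 59.4 CPM in GFP, 159 and 146 CPM in YAP6SA, and 143 and 93.3 CPM in YAP5SA (pooled log2 change 1.12 ± 0.15, FDR 0.00863). *Myl9*, a regulatory light chain of nonmuscle and smooth muscle myosin, was at 45.7 and 18.5 CPM in GFP, 123 and 98.8 CPM in YAP6SA, and 103 and 70.2 CPM in YAP5SA (1.70 ± 0.20, FDR 0.00489). For both genes the YAP6SA value was the higher one in each batch, yet the difference between the variants was not called (FDR 0.144 for *Srf* and 0.253 for *Myl9*). *Cnn2*, calponin 2, went the other way: it was at 39.9 and 26.0 CPM in GFP, 87.4 and 50.3 CPM in YAP6SA, and 214 and 266 CPM in YAP5SA, and the variants differed by 1.87 (95% interval 1.32 to 2.41, FDR 0.00164). *Tpm1*, the main tropomyosin of the sarcomere, rose from 1820 and 1991 CPM to 3060 and 3140 CPM in YAP6SA and 3511 and 3304 CPM in YAP5SA (0.77 ± 0.18, FDR 0.0468).

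In 9 of the 12 members, all but *Cnn2*, *Tagln2* and *Tpm4*, the difference between YAP5SA and YAP6SA was not called, as was the case for 150 of all 481 members. Without the GFP library of batch 2, or without the YAP6SA library of batch 1, *Acta2*, *Srf*, *Cnn2* and *Myl9* were still members, and without the batch term *Acta2*, *Srf* and *Cnn2* were.

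SRF binds the CArG box, a motif of 10 bases that runs from CC through 6 bases of A or T to GG. The 250 bases before the RefSeq start are shown for the 3 SRF list members with an exact box, in capitals (GRCm38.p6). The *Acta2* window, chr19:34255374-34255623 on the minus strand, held no exact box and is shown with its GGAATG motif, the core to which TEAD factors bind, in capitals. It does hold ccctatatgg and ccttgtttgg, which each depart from the CArG pattern at a single base. Such near matches were not searched for in any window, so the lack of an exact box does not show that SRF sites are absent. *Srf* lies at chr17:46556163-46556412 on the minus strand, *Myl9* at chr2:156775214-156775463 on the plus strand and *Cnn2* at chr10:79988350-79988599 on the plus strand.
Srf: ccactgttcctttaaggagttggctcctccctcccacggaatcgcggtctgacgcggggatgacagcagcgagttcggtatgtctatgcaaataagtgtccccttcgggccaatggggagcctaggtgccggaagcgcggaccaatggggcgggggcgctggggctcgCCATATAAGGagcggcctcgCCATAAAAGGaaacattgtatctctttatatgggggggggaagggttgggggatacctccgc
Myl9: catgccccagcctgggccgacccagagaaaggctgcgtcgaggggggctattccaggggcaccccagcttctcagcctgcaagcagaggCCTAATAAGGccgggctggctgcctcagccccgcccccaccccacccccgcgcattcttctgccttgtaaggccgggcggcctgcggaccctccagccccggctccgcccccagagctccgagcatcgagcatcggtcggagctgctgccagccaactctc
Cnn2: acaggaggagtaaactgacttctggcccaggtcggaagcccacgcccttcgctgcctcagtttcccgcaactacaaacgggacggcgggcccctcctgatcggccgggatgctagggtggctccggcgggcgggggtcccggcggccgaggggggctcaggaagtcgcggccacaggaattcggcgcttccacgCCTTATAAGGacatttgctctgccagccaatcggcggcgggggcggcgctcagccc
Acta2: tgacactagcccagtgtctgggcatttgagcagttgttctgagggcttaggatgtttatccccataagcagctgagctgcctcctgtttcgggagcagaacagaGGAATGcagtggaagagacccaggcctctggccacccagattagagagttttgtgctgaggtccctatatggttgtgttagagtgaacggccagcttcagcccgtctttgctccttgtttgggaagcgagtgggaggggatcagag
The boxes began 82 and 62 bases upstream of the start in *Srf*, 161 bases in *Myl9* and 56 bases in *Cnn2*. Over windows of 300 bases (250 before and 50 after the start, both strands), a CArG box stood in 8 of the 306 promoters of higher members (2.61%), in 2 of the 167 promoters of lower members (1.2%) and in 1.37% of the promoters of all tested genes. GGAATG stood in 17.0%, 10.2% and 12.4% of these promoters, and the cyclic-AMP response element TGACGTCA in 3.92%, 2.4% and 2.96%. RefSeq promoters were matched by symbol for 246 of the 316 higher and 117 of the 165 lower members. On the SRF list a CArG box stood in 3 of 13 promoters of the higher members (23.1%). Over all tested genes of that list it stood in 12 of 42 promoters (28.6%), so the box was no more frequent in the members.

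Genes that respond within minutes to hours of a stimulus were the next group. Of 28 tested immediate early genes 6 were members, all higher (21.4%, against 2.37% of all genes tested): *Nr4a1*, *Sik1*, *Atf3*, *Fosl2*, *Klf4* and *Ier3*. Without the batch term or without the GFP library of batch 2, *Nr4a1*, *Sik1* and *Fosl2* were still members. The list's median log2 change was 0.67, with 0.54 in YAP6SA and 1.05 in YAP5SA. *Nr4a1*, an orphan nuclear receptor, was at 61.2 and 68.8 CPM in GFP, 264 and 222 CPM in YAP6SA, and 192 and 118 CPM in YAP5SA. *Sik1*, a kinase that curbs the cofactors of CREB, was at 40.2 and 36.4 CPM in GFP, 144 and 104 CPM in YAP6SA, and 96.7 and 65.6 CPM in YAP5SA. In both genes every variant library exceeded both GFP libraries, with YAP6SA above YAP5SA in each batch.

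*Atf3*, a stress-induced transcription factor, rose by 1.81 ± 0.37 (FDR 0.0311), with 12.8 and 3.72 CPM in GFP against 25.1 to 28.9 CPM in the 4 variant libraries. *Fosl2*, a subunit of AP-1, rose by 1.5 ± 0.22 (FDR 0.0106) and *Klf4* by 1.41 ± 0.30 (FDR 0.0343), both further in YAP5SA. *Fos* itself was not called (1.40 ± 0.43, FDR 0.088), with 23.2 and 6.79 CPM in GFP and 30.5 to 52.9 CPM in the variants.

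Of 16 tested CREB targets 4 were members, all higher (25%, against 2.37%): *Nr4a1*, *Sik1*, *Irs2* and *Pde4b*. *Pde4b*, a phosphodiesterase that degrades cyclic AMP, was at 101 and 107 CPM in GFP, 165 and 167 CPM in YAP6SA, and 161 and 183 CPM in YAP5SA (0.70 ± 0.13, FDR 0.0217). The median log2 change of the list was 0.57 in YAP6SA and 0.066 in YAP5SA. The promoter of *Nr4a1* at chr15:101266596-101266845 on the plus strand (GRCm38.p6) is shown because it carries the half-site TGACG of the CREB motif 4 times, each as its reverse complement CGTCA, in capitals.
Nr4a1: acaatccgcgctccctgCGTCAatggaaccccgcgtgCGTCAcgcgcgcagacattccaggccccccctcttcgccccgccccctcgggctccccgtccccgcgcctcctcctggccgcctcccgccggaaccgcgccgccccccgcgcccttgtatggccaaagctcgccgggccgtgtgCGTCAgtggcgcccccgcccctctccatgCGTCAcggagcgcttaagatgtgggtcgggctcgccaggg
The half-site occurs in 30.4% of the promoters of tested genes and in 31.0% of those of the higher members. The *Nr4a1* window also holds the TEAD core GGAATG 1 time, as its reverse complement cattcc, left in lower case.

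**Figure D2:**
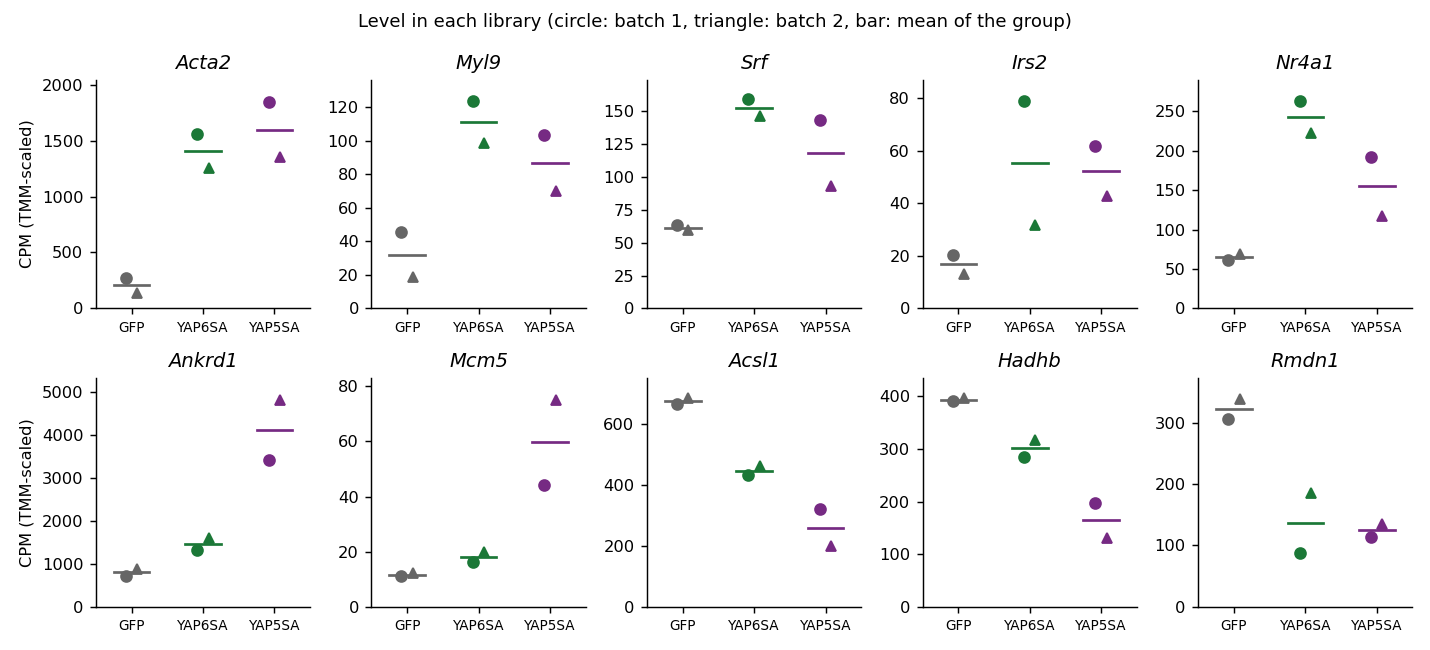
Level of 10 members in each library in TMM-scaled CPM, with circles for batch 1, triangles for batch 2 and bars for the mean of the 2 libraries of a group. In *Acta2*, *Myl9*, *Srf*, *Irs2* and *Rmdn1* no difference between the variants was called, *Nr4a1* was highest in YAP6SA, and *Ankrd1*, *Mcm5*, *Acsl1* and *Hadhb* were intermediate in YAP6SA.

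Canonical YAP and TEAD targets were also among the members. Of 21 tested genes on that list 3 were members, all higher (14.3%, against 2.37% of all genes tested): *Ankrd1*, *Nuak2* and *Tgfb2*. The same upward sign in all 4 differences held for 4 of the 21 (19%), which is near the 17.2% of all genes tested. The median log2 change of the list was 1.15 in YAP5SA and 0.087 in YAP6SA. *Ankrd1*, a stress-responsive sarcomeric ankyrin repeat protein, was at 726 and 874 CPM in GFP, 1325 and 1596 CPM in YAP6SA, and 3425 and 4814 CPM in YAP5SA (pooled 1.61 ± 0.19, FDR 0.00463). Its 3 groups did not overlap. *Nuak2*, a kinase of the AMPK family, was at 14.0 and 7.44 CPM in GFP, 15.4 and 10.9 CPM in YAP6SA, and 47.4 and 65.1 CPM in YAP5SA, so that YAP6SA and GFP overlapped. *Tgfb2*, a transforming growth factor beta ligand, rose by 1.28 ± 0.22 (FDR 0.0179). Without the GFP library of batch 2, 0 of the 3 passed edgeR's threshold, and all 3 had an unadjusted p under 0.05.

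The *Ankrd1* promoter at chr19:36119845-36120094 on the minus strand (GRCm38.p6) is shown as a counterpart to that of *Srf*. It holds GGAATG at 210 and 123 bases upstream of the start, in capitals, and no exact CArG box.
Ankrd1: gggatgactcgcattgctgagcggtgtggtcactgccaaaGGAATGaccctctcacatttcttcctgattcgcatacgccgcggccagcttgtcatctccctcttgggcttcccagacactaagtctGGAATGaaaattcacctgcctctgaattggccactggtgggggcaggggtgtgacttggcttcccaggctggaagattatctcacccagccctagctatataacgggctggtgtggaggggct

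Of 27 tested genes of the Hippo cascade, TEAD factors and cofactors 3 were members, all higher (11.1%, against 2.37%): *Tead4*, *Amot* and *Vgll4*. The same upward sign in all 4 differences held for 5 of the 27 (18.5%), near the 17.2% of all genes tested. *Tead4*, one of the TEAD factors, was at 1.47 and 1.96 CPM in GFP, 3.05 and 3.58 CPM in YAP6SA, and 13.4 and 23.0 CPM in YAP5SA (2.17 ± 0.31, FDR 0.0106). *Vgll4*, a cofactor that competes with YAP for TEAD, rose by 1.09 ± 0.21 (FDR 0.0249). *Tead1*, the TEAD factor most abundant in CMs, was not called (0.34 ± 0.16, FDR 0.226).

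Cell cycle genes formed the largest number of members, and in them the variants stood far apart. Of 44 tested S phase genes 14 were members (31.8%) and of 52 tested G2/M genes 9 were (17.3%), all higher, against 2.37% of all genes tested. The S phase list had a median log2 change of 0.14 in YAP6SA and 1.58 in YAP5SA, and the G2/M list 0.079 and 1.82. The S phase members were the replicative helicase genes *Mcm2*, *Mcm3*, *Mcm5* and *Mcm6*, the licensing factors *Cdc6* and *Cdt1*, the sliding clamp *Pcna*, the ribonucleotide reductase subunits *Rrm1* and *Rrm2*, and *E2f1*, *Uhrf1*, *Hells*, *Clspn* and *Pole*.

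*Mcm5* was at 11.1 and 12.1 CPM in GFP, 16.4 and 19.8 CPM in YAP6SA, and 44.2 and 75.1 CPM in YAP5SA (pooled 1.47 ± 0.20, FDR 0.00848). The 3 groups did not overlap. *Mcm2*, by contrast, was at 10.7 and 11.2 CPM in GFP and 10.7 and 19.3 CPM in YAP6SA, so its lower YAP6SA library barely exceeded its GFP library. *Ect2*, an exchange factor needed for cytokinesis, was at 27.5 and 21.0 CPM in GFP, 29.3 and 31.2 CPM in YAP6SA, and 152 and 200 CPM in YAP5SA (1.58 ± 0.18, FDR 0.00442). The other G2/M members were *Ccnb2*, *Cdc20*, *Cdca3*, *Dlgap5*, *Kif23*, *Mad2l1*, *Ncapg* and *Top2a*, with pooled log2 changes of 1.05 to 1.78.

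In all 23 of these cell cycle members the YAP5SA change exceeded the YAP6SA change past the threshold, by 1.08 to 2.54. *Cdk1* and *Ccnb1*, the mitotic kinase and its cyclin, were not members. *Cdk1* passed the pooled test (1.16 ± 0.27, FDR 0.0457) but its YAP6SA library of batch 1 (15.9 CPM) lay below GFP (16.1 CPM). *Ccnb1* was at 14.9 and 5.42 CPM in GFP, 9.82 and 10.4 CPM in YAP6SA, and 31.6 and 36.4 CPM in YAP5SA (FDR 0.122). Without the GFP library of batch 2, *Ect2* was the only cell cycle member left. Of 13 cyclin D, CDK4/6 and CDK inhibitor genes 2 were members and higher (15.4%, against 2.37% of all genes tested). These were the inhibitor *Cdkn1a* (0.73 ± 0.17, FDR 0.0452) and *Rbl1* (0.89 ± 0.20, FDR 0.0419).

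Other lists of the cytoskeleton and its surroundings held members as well. Of 12 tested tubulin genes *Tuba1a*, *Tuba1b*, *Tubb2a* and *Tubb5* rose (33.3%, against 2.37% of all genes tested). The 1 that fell (8.33%, against 1.24%) was *Tuba4a*, from 326 and 331 CPM in GFP to 254 and 281 CPM in YAP6SA and 173 and 109 CPM in YAP5SA. Without the batch term, without either GFP library or without the YAP6SA library of batch 1, 0 of these 5 passed edgeR's threshold, and all 5 had an unadjusted p under 0.05. Of 29 integrin and focal adhesion genes 4 rose (13.8%, against 2.37% of all genes tested): *Itgb1*, *Lims2*, *Tns3* and *Zyx*, the last of which is also on the SRF list. In the same 4 fits *Tns3* alone remained a member. *Itgb1*, the beta subunit shared by most integrins, was at 89.7 and 74.0 CPM in GFP, 140 and 111 CPM in YAP6SA, and 159 and 171 CPM in YAP5SA (0.82 ± 0.14, FDR 0.0184). Of 32 extracellular matrix genes *Sparc*, a collagen-binding glycoprotein, was the only member (1.07 ± 0.22, FDR 0.0301), a share of 3.12% that is near the 2.37% of all genes tested. The same upward sign in all 4 differences held for 15 of the 32 (46.9%, against 17.2% of all genes tested), and the downward sign for 2. At edgeR's unadjusted p under 0.05, 14 were higher and 2 lower, and the list's median log2 change was 0.31.

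Of 26 secreted growth factors 4 rose (15.4%, against 2.37% of all genes tested) and 1 fell (3.85%, against 1.24%). *Tgfb3*, a transforming growth factor beta ligand, was at 10.9 and 8.03 CPM in GFP, 16.5 and 9.70 CPM in YAP6SA, and 79.6 and 131 CPM in YAP5SA. *Ccl2*, *Cxcl12* and *Tgfb2* were the other 3 that rose, and without the GFP library of batch 2 edgeR called 0 of the 5, all with an unadjusted p under 0.05. *Fgf9*, a fibroblast growth factor, fell to 21.9 and 36.7 CPM in YAP6SA and 26.4 and 37.5 CPM in YAP5SA from 47.7 and 53.8 CPM in GFP (-0.76 ± 0.16, FDR 0.0329). All 4 variant libraries lay below both GFP libraries, and the variants, which overlapped, differed by 0.14 with a 95% interval of -0.28 to 0.57.

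Genes of fatty acid oxidation made up the largest listed group among those that fell. Of 24 tested genes 8 were members and lower (33.3%, against 1.24% of all genes tested), none was higher, and 14 had the same downward sign in all 4 differences. The list's median log2 change was -0.58 pooled, -0.20 in YAP6SA and -0.92 in YAP5SA. *Acsl1*, which activates long-chain fatty acids to their CoA esters, was at 665 and 685 CPM in GFP, 431 and 463 CPM in YAP6SA, and 321 and 199 CPM in YAP5SA (-0.99 ± 0.18, FDR 0.0194). The levels fell in the order GFP, YAP6SA, YAP5SA without overlap.

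*Acadm*, the medium-chain acyl-CoA dehydrogenase, was at 1126 and 1148 CPM in GFP, 697 and 902 CPM in YAP6SA, and 605 and 416 CPM in YAP5SA (-0.83 ± 0.19, FDR 0.0409). *Hadhb*, the beta subunit of the mitochondrial trifunctional protein, was at 390 and 397 CPM in GFP, 284 and 318 CPM in YAP6SA, and 198 and 130 CPM in YAP5SA (-0.83 ± 0.17, FDR 0.0293). The carnitine shuttle was represented by *Cpt1a*, *Cpt2* and *Slc25a20*, which fell by 0.64, 0.58 and 0.66, and the list was completed by *Eci2* and *Etfdh*, which fell by 0.56 and 0.70. In each of these 8 genes all variant libraries lay below both GFP libraries. Without the GFP library of batch 2, without the YAP6SA library of batch 1 and without the batch term, 0 of the 8 passed edgeR's threshold, and all 8 had an unadjusted p under 0.05 in each of these 3 fits. Without the GFP library of batch 1 *Acsl1* alone passed, and 7 of the 8 had an unadjusted p under 0.05.

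Other genes of energy metabolism gave few calls. Of 24 tested genes of the TCA cycle 0 were called by edgeR in either direction, with 6 lower and 0 higher at an unadjusted p under 0.05. Of 73 nuclear genes of the respiratory chain 1 was a member, *Ndufa1* (0.80 ± 0.16, FDR 0.0294), a share of 1.37% against 2.37% of all genes tested. The same upward sign in all 4 differences held for 30 of them (41.1%, against 17.2% of all genes tested). At edgeR's unadjusted p under 0.05, 24 were higher and 1 lower. Of 28 genes of glucose transport and glycolysis *Ldha* and *Pgk1* rose (7.14%). At an unadjusted p under 0.05, 10 genes of the glucose list were lower and 3 higher, and its median log2 change was -0.093 pooled and -0.25 in YAP5SA. *Ppargc1b*, a coactivator of mitochondrial and fatty acid oxidation genes, fell from 85.4 and 88.1 CPM in GFP to 80.0 and 60.8 CPM in YAP6SA and 41.3 and 32.2 CPM in YAP5SA (-0.79 ± 0.14, FDR 0.0189).

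mRNAs encoded by the mitochondrial genome, which are not of nuclear origin, rose in the same libraries. Of 10 tested such mRNAs 8 were members and higher (80%, against 2.37% of all genes tested) and all 10 had the upward sign in all 4 differences. Of the 8, edgeR called 0 without the batch term or without the GFP library of batch 2, 1 without the GFP library of batch 1 and 2 without the YAP6SA library of batch 1, and 6 to 8 had an unadjusted p under 0.05 in these fits. The 13 mRNAs of this list, tested or not, made up 1.21 and 1.16% of the counts on genes in GFP. The share was 1.82 and 2.27% in YAP6SA, and 2.05 and 2.81% in YAP5SA. The part of this shift in the other results was not tested. Of 4 tested nuclear long noncoding RNAs edgeR called 0, with 1 higher at an unadjusted p under 0.05.

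Muscle genes moved in both directions. Of 33 sarcomere genes *Tpm1* rose (3.03%, near the 2.37% of all genes tested) and *Tcap*, *Xirp2* and *Synpo2* fell (9.09%, against 1.24%). Of 33 tested genes of calcium cycling and ion channels 0 were members (10 were lower at an unadjusted p under 0.05, and 1 lower call of edgeR did not agree in sign). Of 22 cardiac transcription factors *Hand2* rose (4.55%) and *Irx3* and *Ppargc1b* fell (9.09%). *Hand2* was at 68.0 and 81.7 CPM in GFP, 115 and 140 CPM in YAP6SA, and 118 and 114 CPM in YAP5SA (0.71 ± 0.13, FDR 0.0249). Its changes in YAP6SA (0.77) and YAP5SA (0.64) differed by -0.12, with a 95% interval of -0.46 to 0.21. *Irx3*, a homeobox factor of the ventricular conduction system, was at 40.6 and 63.7 CPM in GFP, 24.3 and 42.5 CPM in YAP6SA, and 22.3 and 49.6 CPM in YAP5SA, and it fell within each batch although the groups overlapped across batches. Of 15 fetal and stress genes *Ankrd1* and *Gdf15* rose (13.3%) and *Xirp2* fell (6.67%), and of 7 tested skeletal muscle genes *Myh8* was the only member (14.3%).

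The remaining lists held members too, where 2.37% of all genes tested were higher members and 1.24% lower ones. Of 29 genes of insulin, IGF and FOXO signalling *Irs2*, *Igf1r* and *Igfbp5* rose (10.3%) and *Sesn1* fell (3.45%). Of 18 genes of the integrated stress response the amino acid transporter subunits *Slc7a5* and *Slc3a2* rose (11.1%) and *Ddit3* fell (5.56%). Of 17 interferon response genes *Ifit2* rose (5.88%). Without the batch term edgeR still called *Slc7a5* alone of these members, and all had an unadjusted p under 0.05.

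**Figure D3:**
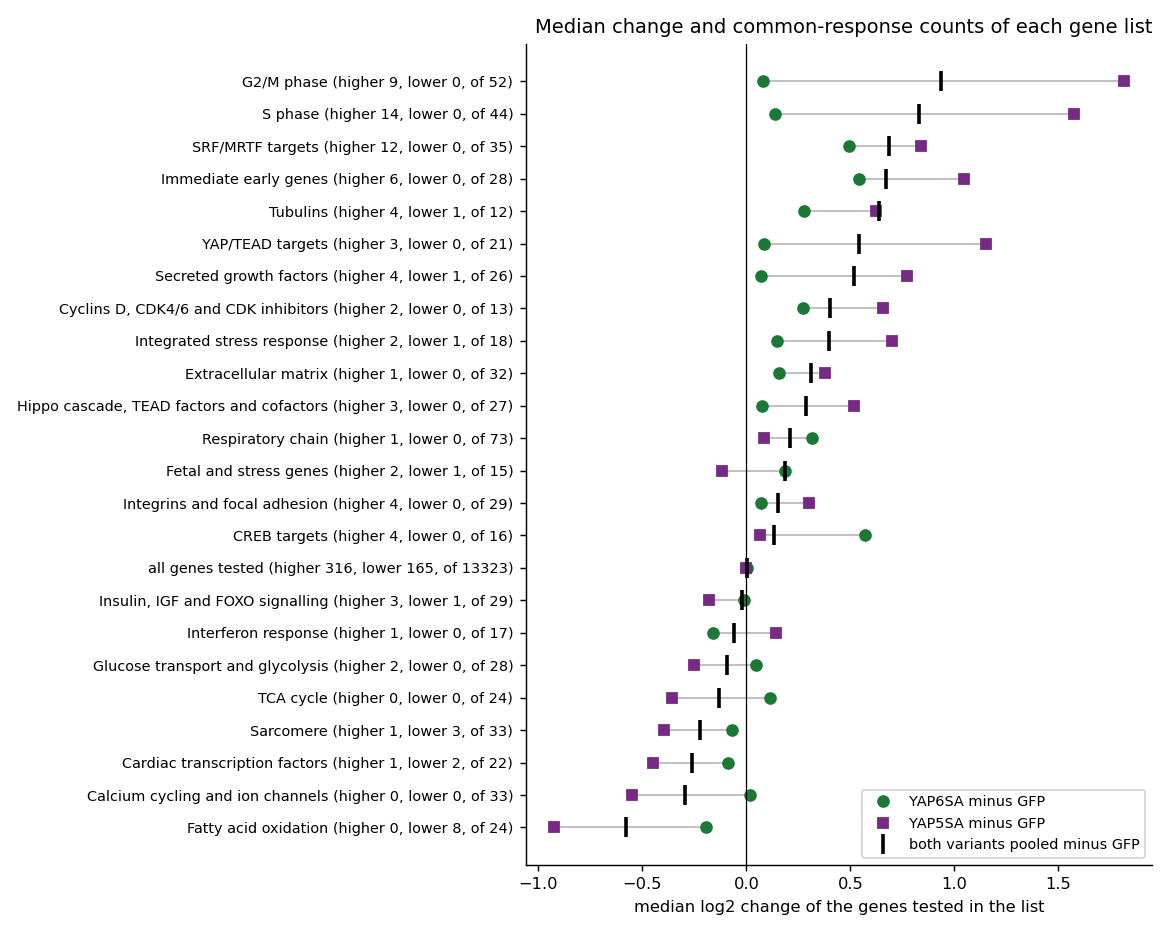
Median log2 change against GFP of the tested genes of each reported pathway list with at least 10 of them (marker and RNA quality lists are not drawn), and of all genes tested, for YAP6SA (green circles), YAP5SA (purple squares) and both pooled (black ticks), with the number of members that were higher and lower in brackets. Of the lists drawn, both phases of the cell cycle lie at the top, with medians near 0 in YAP6SA (S phase 0.14 and 1.58), the medians of SRF/MRTF targets (0.49 and 0.84) are closer together, and fatty acid oxidation lies at the bottom (-0.20 and -0.92).

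The 15 lower members ranked first by the same rule included 5 annotated genes with a name other than a predicted locus: *Rmdn1*, *Grhl2*, *Ifngr2*, *Lsmem1* and *Plcl2*. *Rmdn1*, a regulator of microtubule dynamics, was at 306 and 339 CPM in GFP, 87.9 and 185 CPM in YAP6SA, and 113 and 136 CPM in YAP5SA (-1.35 ± 0.18, FDR 0.00848). *Grhl2*, an epithelial transcription factor, was at 32.8 and 21.3 CPM in GFP, 14.9 and 9.46 CPM in YAP6SA, and 10.4 and 7.90 CPM in YAP5SA (-1.35 ± 0.18, FDR 0.00856). In both genes all variant libraries lay below both GFP libraries and the variants did not differ past the threshold.

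*Ifngr2*, a chain of the interferon gamma receptor, was at 126 and 139 CPM in GFP, 60.5 and 79.1 CPM in YAP6SA, and 40.8 and 77.8 CPM in YAP5SA (-1.08 ± 0.16, FDR 0.0111). *Plcl2*, a phospholipase C-like protein without catalytic activity, fell by 0.88 ± 0.14 (FDR 0.0153), and *Lsmem1* by 1.03 ± 0.19 (FDR 0.0249). The GFP level of *Plcl2* in batch 1 (43.3 CPM) was below the YAP5SA level in batch 2 (46.3 CPM), so its agreement holds within batches only.

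The other 10 were predicted or noncoding loci, and each lay within or overlapped another tested gene. *Gm42525*, *Gm43355* and *Gm42970* lay within *Ank2*, the gene of ankyrin-B, and together span chr3:127298322-127481427 (GRCm38). *Gm43355* was at 25.8 and 47.3 CPM in GFP, 3.26 and 16.7 CPM in YAP6SA, and 11.3 and 9.98 CPM in YAP5SA (-1.85 ± 0.36, FDR 0.0263). *Gm42970* was at 29.3 and 58.0 CPM in GFP, 14.3 and 24.7 CPM in YAP6SA, and 8.81 and 9.75 CPM in YAP5SA (-1.65 ± 0.20, FDR 0.00489). *Ank2* as a whole was not called (-0.35, FDR 0.24).

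*Gm36388* lay antisense within *Esrrg* (-0.42, FDR 0.272), *Gm45203* within *Idh2* (-0.098, FDR 0.757), *Gm43813* within *Mlxip* (-0.38, FDR 0.124), *Platr32* within *Alpk3* (-0.29, FDR 0.282) and *Gm17428* opposite *Myh7* (-0.22, FDR 0.486). None of these 5 overlapped genes was called, whereas the loci within them fell by 1.87, 1.33, 1.36, 1.34 and 1.20. *Gm7511* and *Gm20342* overlapped *2700097O09Rik* and *Ino80dos*, neither called. Without strand information, reads of a locus and of an antisense gene over it cannot be told apart, and the same holds for unspliced reads of a host gene.

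Since membership required the same sign in both variants, only the size of the change could differ between them. The median log2 change of the higher members was 0.51 in YAP6SA and 1.73 in YAP5SA, and that of the lower members -0.39 and -1.15. YAP5SA lay further from GFP than YAP6SA past the threshold in 229 of the 316 higher and 100 of the 165 lower members, where 14.7% of all tested genes differed between the variants (9% higher and 5.68% lower in YAP5SA). Members were selected on the average of both variants, so a large change in YAP5SA favoured membership. The excess over all tested genes follows in part from this selection, and the counts are a description. YAP6SA lay further from GFP in 2 members, *Nr4a1* and *Sik1*. In 136 higher and 40 lower members the YAP6SA change was under 0.25 of the YAP5SA change.

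For 150 members, 85 higher and 65 lower, the difference between the variants was not called, and in 103 of them the 95% interval of the difference lay within 1 log2 unit. In these 150 the median changes were 0.75 in YAP6SA and 0.98 in YAP5SA for the higher members and -0.66 and -1.03 for the lower ones. They included *Acta2*, *Myl9*, *Srf*, *Irs2*, *Pde4b*, *Hand2*, *Rmdn1*, *Grhl2* and *Fgf9*. Tested alone against the GFP libraries that the comparisons share, YAP6SA called 6 of the higher and 0 of the lower members with edgeR (background 0.045% and 0%), with 136 and 73 at an unadjusted p under 0.05. YAP5SA called 315 and 163 (background 12.8% and 9.18%). With few calls for YAP6SA alone, the membership of most genes rests on YAP5SA together with the sign in YAP6SA.

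**Figure D4:**
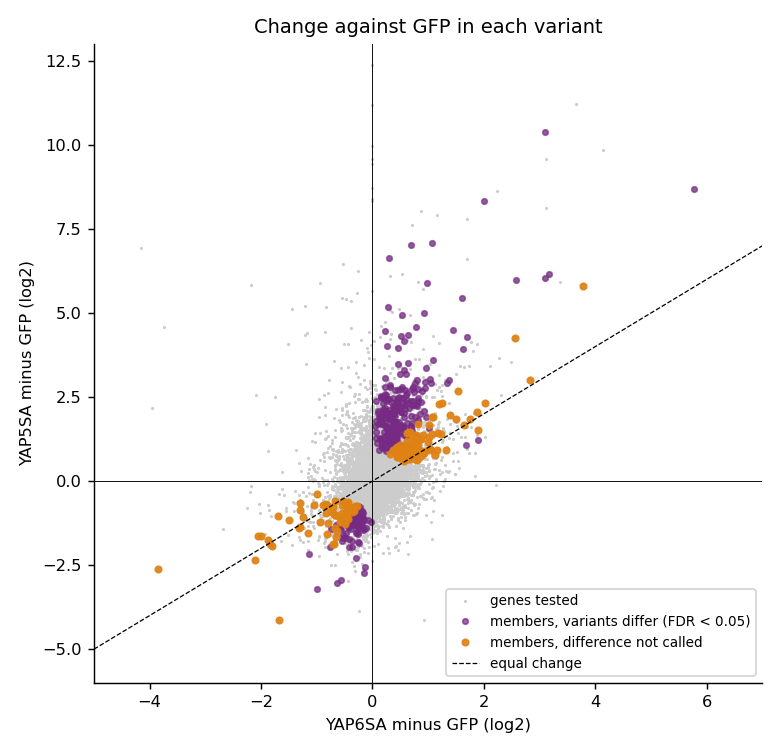
Log2 change against GFP in YAP6SA (horizontal) and YAP5SA (vertical) for all 13323 tested genes in grey, the 331 members whose change differed between the variants in purple and the 150 members for which no difference was called in orange. The dashed line marks equal change; most purple points lie farther from 0 on the vertical axis, and both axes share the GFP libraries.

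Leaving out each library in turn kept 24 members, 23 higher and 1 lower, in every one of the 6 fits, and 21 of them also passed without the batch term. Their selection was made on these values, so they are a description of the calls that rest on no single library. *Acta2*, *Irs2*, *Myl9*, *Srf* and *Rmdn1* were the 5 for which the variants did not differ past the threshold. In *Nr4a1* and *Sik1* YAP6SA was the further one. The other 17 were higher in YAP5SA by a larger step, with *Cnn2*, *Ect2*, *Tns3*, *Fosl2*, *Wt1*, *Aif1l* and *Myh8* named above or below among them.

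The rest of these 17 were *Adcy1*, *Adamts8*, *Cfap43*, *Eif1a*, *Emp2*, *Gm30873*, *Igf2bp1*, *Pak3*, *Prss27* and *Tmbim1*. *Adcy1*, an adenylyl cyclase stimulated by calcium and calmodulin, was at 7.46 and 13.6 CPM in GFP, 9.61 and 14.4 CPM in YAP6SA, and 171 and 290 CPM in YAP5SA. *Igf2bp1*, an RNA-binding protein of fetal tissues, was at 1.16 and 2.09 CPM in GFP, 1.48 and 3.33 CPM in YAP6SA, and 36.2 and 64.1 CPM in YAP5SA. In both genes the YAP6SA library of batch 1 lay below the GFP library of batch 2, so the step in YAP6SA was seen within batches only.

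Markers of other cell types were measured to see what else the nuclei could hold. In bulk nuclei, fewer cells of a type and less RNA per cell cannot be told apart. Of the fibroblast, endothelial and pericyte markers (10, 10 and 8 tested) 0 were called by edgeR in either direction (7 were higher and 0 lower at an unadjusted p under 0.05). The same upward sign in all 4 differences held for 6 fibroblast (60%), 4 endothelial (40%) and 2 pericyte markers (25%). Over all genes tested that share was 17.2%, and 0 of these markers had the downward sign in all 4 differences. Summed levels are given in CPM scaled to library size alone, without TMM factors. The summed levels of the fibroblast markers ran from 839 to 1428 CPM in GFP, 988 to 1842 CPM in YAP6SA and 977 to 1602 CPM in YAP5SA. Cardiomyocyte markers summed to 64020 and 77240 CPM in GFP, 60870 and 74890 CPM in YAP6SA and 54700 and 39200 CPM in YAP5SA, with 0 of 10 called by edgeR and 2 lower at an unadjusted p under 0.05. Of the 2 erythroid markers and the 1 Schwann and neuronal marker tested edgeR called 0, and 1 erythroid marker was lower at an unadjusted p under 0.05.

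Of 8 tested smooth muscle markers 2 were members and higher (25%, against 2.37% of all genes tested). These were *Acta2* and *Myl9*, which are also on the SRF list. At edgeR's unadjusted p under 0.05, 4 of the 8 were higher and 0 lower, and the list's median log2 change was 0.37. *Myh11*, the smooth muscle myosin heavy chain, was at 14.2 and 6.07 CPM in GFP, 14.0 and 7.09 CPM in YAP6SA, and 21.3 and 16.5 CPM in YAP5SA (0.54 ± 0.24, FDR 0.208). *Cnn1* was at 1.84 and 0.718 CPM in GFP and between 1.52 and 4.77 CPM in the variants (1.44 ± 0.44, FDR 0.088). *Lyz2* was the only member of 8 tested macrophage markers (12.5%, against 2.37%), at 5.47 and 6.99 CPM in GFP and 8.19 to 22.6 CPM in the variants (1.02 ± 0.24, FDR 0.0458). Of these 8 markers 4 had the upward sign in all 4 differences (50%, against 17.2%) and 0 the downward sign. *Wt1*, an epicardial transcription factor, was the only member of 6 epicardial markers (16.7%). It was at 13.8 and 13.6 CPM in GFP, 23.6 and 14.6 CPM in YAP6SA, and 92.9 and 155 CPM in YAP5SA. The part of other cell types in the members was not tested.

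**Figure D5:**
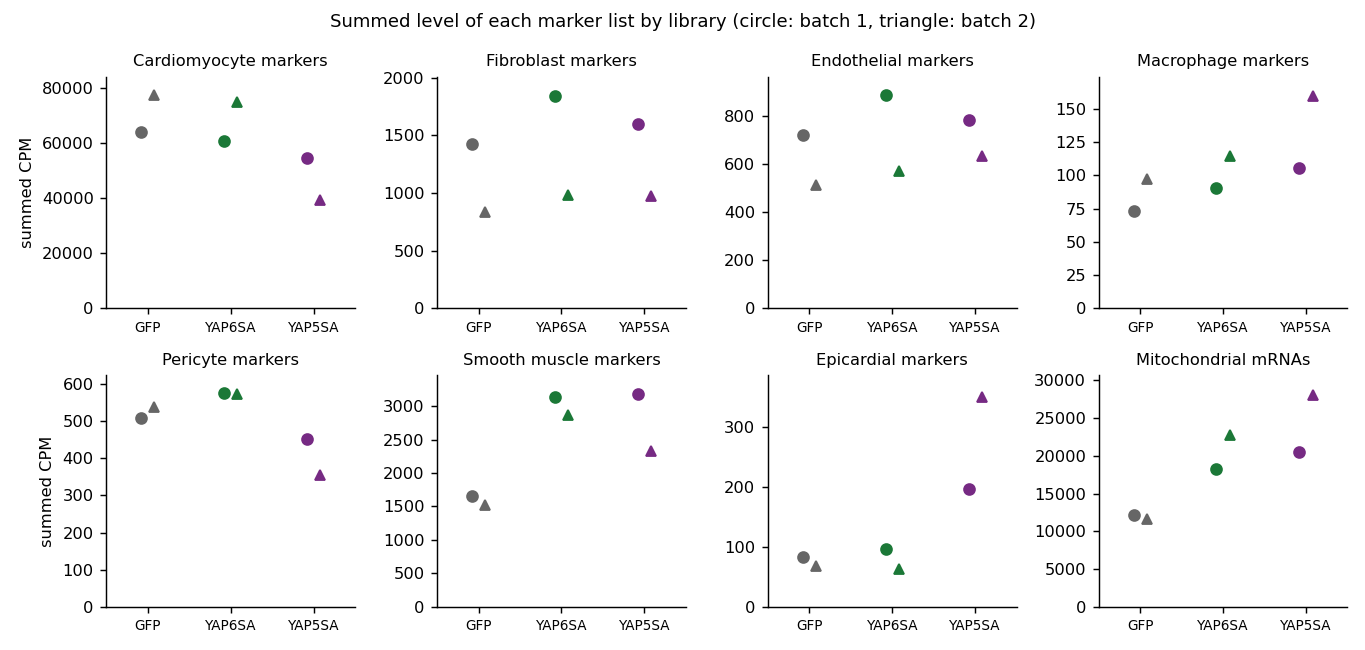
Summed CPM of each marker list by library, scaled to library size without TMM factors, with circles for batch 1 and triangles for batch 2. Fibroblast and endothelial sums followed the batch more than the group, and within each batch both variants lay above GFP. Smooth muscle sums (1528 to 1660 CPM in GFP) were higher in all 4 variant libraries. They include *Acta2*, at 272 and 142 CPM in GFP and between 1256 and 1842 CPM in the variants (with TMM factors). These sums thus do not show a rise of the whole smooth muscle list. Mitochondrial mRNA sums rose from 11620 to 12120 CPM in GFP to 18210 to 28080 CPM in the variants.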

How the data were processed

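Polyadenylated RNA of PCM1-bound CM nuclei was measured in 6 libraries (3 groups of 2, 1 library of each group in each of 2 batches). The deposited values are whole-number counts per Ensembl gene, which the authors obtained by STAR alignment to the mm10 build; per the submitters' notes edgeR was also used, and versions are not given in the sources used here. Symbols and coordinates came from GENCODE M21 (GRCm38).

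Genes with a median log2 CPM over 1 in at least 1 group were kept (13323 of 27396 with a count). Counts were scaled by TMM and fitted in edgeR 4.0.16 (R 4.3.3) with batch and group. The contrast was the mean of YAP6SA and YAP5SA minus GFP, tested by quasi-likelihood with Benjamini-Hochberg adjustment (FDR), with 2 residual degrees of freedom. Within-batch differences used log2 CPM with a prior count of 2. Each variant against GFP and YAP5SA against YAP6SA came from the same fit. The procedure was tested on simulated data. The 15 higher and 15 lower members with the largest smallest within-batch difference (mean log2 CPM of at least 1) and any member of a gene list were named, and other names were chosen after their values were seen. The members, gene lists and motifs were chosen with earlier results of these data known. The result of 1 gene list is not reported here.

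The replicate number in the labels is the batch, which was kept as a block. Deviations from the group means correlated between same-numbered libraries at 0.368 (GFP and YAP6SA), 0.0985 (GFP and YAP5SA) and 0.175 (YAP6SA and YAP5SA). Alternatives covered scaling, the filter, the test (limma 3.58.1, DESeq2 1.42.0), the block, the coding of the groups, the threshold, the agreement rule and each library left out. A symbol held by more than 1 Ensembl gene was taken at the more abundant one in the lists. Counting error and the spread between 2 libraries limit the precision. In edgeR's quasi-likelihood fit the spread of each gene was also moderated by that of the other genes tested.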

Additional observations from a re-analysis of the deposited data

Results flagged for a closer look

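Genes whose change against GFP differed between the variants were looked at among the 30 members ranked by their smallest within-batch difference and among those with the larger change in YAP6SA, with the difference given as YAP5SA minus YAP6SA on the log2 scale and edgeR's FDR. YAP5SA was higher by 2.59 for *Aif1l* (FDR 0.00076), by 1.58 for *Amot* (FDR 0.0476), by 2.52 for *Trp63* (FDR 0.00305) and by 3.40 for *Wscd2* (FDR 0.00443). It was higher by 7.29 for *Myh8* (FDR 1.4e-05), a fitted value that rests on 5 and 6 counts in the YAP6SA libraries. It was lower by -1.02 for the *Gm42970* locus within *Ank2* (FDR 0.0223). The difference was -0.67 for *Nr4a1* (FDR 0.0492) and -0.62 for *Sik1* (FDR 0.0275), where YAP6SA was the further from GFP. Groups of 2 libraries are too small to single out a deviating library.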

How the results depend on the processing

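Counts are given as higher and lower. For genes of the pooled contrast, against 416 and 172, they were 1103 and 693 without the filter, 1013 and 552 with the likelihood ratio test, 734 and 347 with DESeq2, 104 and 14 without the replicate block, 0 and 0 with the variants as 1 group, 40 and 5 at a threshold of 0.01 and 933 and 541 at 0.1. For the common response, against 316 and 165, the same settings gave 733 and 536, 716 and 476, 519 and 305, 87 and 14, 0 and 0, 32 and 5, and 673 and 475. Requiring each variant to pass on its own left 6 and 0, and requiring every within-batch difference to reach 0.3 left 168 and 77. Without the batch term 1504 and 1063 genes had an unadjusted p under 0.05, and with the variants as 1 group 489 and 265 had. With 1 library left out, the pooled counts ran from 37 to 1767 and from 9 to 1559, and the common counts from 35 to 1139 and from 9 to 1049, with the agreement taken over the differences that remained. The lowest came without the GFP library of batch 2 and the highest without the YAP5SA library of batch 1. The lone library of a group is there assumed to vary like the others. Members that differ between the variants numbered 125 to 378 over the fits without 1 variant library, with 125 without the YAP6SA library of batch 2 against 331 in the full fit. The cause of these shifts was not tested. Of the 30 genes ranked by their smallest within-batch difference 30 kept their direction in every setting that tested them, 20 missed the threshold without the batch term and 30 with the variants as 1 group. Under RLE and upper quartile scaling all 30 kept their call. With 2 libraries a group and 2 residual degrees of freedom, small changes in YAP6SA are not detectable.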

Other observations

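Among the lower members outside the lists, chosen after their values were seen, were further genes of fatty acid handling and fuel choice. *Ucp3*, a mitochondrial carrier induced by fatty acids, was at 563 and 659 CPM in GFP, 325 and 515 CPM in YAP6SA, and 236 and 213 CPM in YAP5SA. *Mlycd*, which degrades the CPT1 inhibitor malonyl-CoA, was at 218 and 175 CPM in GFP, 146 and 154 CPM in YAP6SA, and 80.0 and 66.0 CPM in YAP5SA. *Crat*, carnitine acetyltransferase, fell by 0.72 ± 0.16, *Pex11a*, a peroxisome proliferation factor, by 1.00 ± 0.15, and *Mlxipl*, the carbohydrate response factor ChREBP, by 1.08 ± 0.18. In these 5 genes all variant libraries lay below both GFP libraries. *Gys1*, muscle glycogen synthase, fell by 0.69 ± 0.13 (FDR 0.0249).

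Some higher members outside the lists had much the same fitted change in both variants. *Myl6*, the essential light chain of nonmuscle myosin, was at 442 and 321 CPM in GFP, 795 and 625 CPM in YAP6SA, and 727 and 619 CPM in YAP5SA, and the window before its start held a CArG box 50 bases upstream. *Rcan1*, a calcineurin inhibitor, was at 84.8 and 80.9 CPM in GFP, 152 and 137 CPM in YAP6SA, and 138 and 169 CPM in YAP5SA. *Nmrk2*, a nicotinamide riboside kinase of muscle, rose by 1.24 ± 0.19 (FDR 0.012). *Fas*, the death receptor gene next to *Acta2* on chromosome 19, was at 23.7 and 24.3 CPM in GFP, 44.0 and 53.1 CPM in YAP6SA, and 65.4 and 80.2 CPM in YAP5SA, and rose further in YAP5SA (FDR 0.035).

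Of 473 members with coordinates outside the mitochondrial genome, 50 adjacent pairs lay within 200 kb of each other. In 28 pairs both members were higher, in 11 both were lower and in 11 they moved in opposite directions. Most members were higher (316 of 481), and no such count was made over all tested genes. Whether members lie together more often than other genes was thus not tested. The pairs included *Tceal8*, *Tceal5*, *Tceal9* and *Bex3* in a row on chromosome X, all higher, *Tuba1b* and *Tuba1a*, and *Ccl2* and *Ccl12*. Members of these families are similar in sequence, and reads that fit more than 1 of them may be split or lost. The pseudogene copies of mitochondrial genes *Gm28437* and *Gm29216* on chromosome 1 and *Gm13340* and *Gm13341* on chromosome 2 were higher as well, by 1.05 to 1.5, as were the mitochondrial mRNAs they resemble.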
